A study of Mus musculus with 24 samples.

Results

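Gene expression in the amygdala was compared between male mice of 2 lines from a selection experiment on contextual fear conditioning. Line 24 is labelled low freezing and is called the low line here, and line 25, labelled high freezing, is the high line. The comparison covers the 12 amygdala arrays of a series of 24, chosen by tissue and line from the sample descriptions: 6 arrays of the low line (arrays 1 to 6) and 6 of the high line (arrays 7 to 12). The other 12 arrays hold hippocampus of the same lines and are used here to set a line difference in one tissue beside the same difference in the other. The labels give no age, treatment or parent strain, and do not say whether an array is 1 animal or a pool. The p-values therefore reflect only how these arrays varied, which may be technical in part. Each phenotype is represented by 1 line, so a difference between the lines and one tied to freezing cannot be told apart.

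The amygdala is a group of nuclei in the temporal lobe that links a place or a sound with an aversive event. Glutamatergic projection neurons of the basolateral part take up the association during conditioning, and inhibitory neurons of the central part, many of them marked by neuropeptides such as corticotropin-releasing hormone, somatostatin and enkephalin, drive freezing through the brainstem. Small clusters of intercalated inhibitory neurons lie between the parts and gate the flow from one to the other.

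Values are log2(signal + 16) from Affymetrix probe sets, each a group of short probes that reads 1 transcript or a stretch of it. A signal of 0 gives 4 on this scale, so differences of dim probe sets are compressed. Differences are high line minus low line, in log2 units with the standard error (SE), and calls needed a limma p below 0.05 after Benjamini-Hochberg adjustment over all 45037 probe sets. The arrays carried the regional signature of the amygdala. Meis2, a homeobox factor of striatal and amygdala neurons, read 10.12 to 10.63 in amygdala and 7.99 to 8.57 in hippocampus, and Baiap3, a protein of vesicle release, 8.18 to 9.53 against 5.97 to 6.61. Among markers of the hippocampus, Dsp, desmoplakin, read 4.35 to 5.18 against 8.15 to 9.01, and Lct, lactase, 4.11 to 5.40 against 7.88 to 8.74. Others were lower than in hippocampus but not near the floor. Zbtb20 read 9.02 to 9.28 against 10.80 to 11.09, and Pkp2 6.86 to 7.63 against 9.07 to 9.56. Arrays of one line resembled arrays of the other as much as each other, with correlations over probe sets of 0.966 to 0.978 within the low line, 0.971 to 0.979 within the high line and 0.965 to 0.979 between lines. Arrays 7 and 8 of the high line stood apart in RNA quality: the 5' to 3' signal ratio of the actin control was 0.301 and 0.339 there and 0.497 to 0.63 on the other 10 arrays.

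No gene with a name passed the test in the amygdala, and the differences below are measured values that did not pass unless stated otherwise. Of 45037 probe sets 1 was called (0.00222%). It carries no gene name and read 5.06, 5.16 and 5.61 (lowest, median, highest) in the low line and 4.21, 4.37 and 4.44 in the high line, a difference of -0.90 ± 0.10 SE (adjusted p = 0.0385). The lines did not overlap for it, but all values lay near the floor of the scale. In hippocampus its difference had the opposite sign, 0.41 ± 0.23 SE. The call was lost without array 2, 4, 5, 7, 8, 9, 10 or 12. It was also lost with log2(value + 64), with an intensity trend and in a fit of all 24 arrays together.

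At an unadjusted p under 0.01 lay 715 probe sets (1.59%), 329 with a higher and 386 with a lower signal in the high line. Their median absolute difference was 0.47, and 25 of them differed by more than 1. In 46.3% of them both line means were below 6, against 49.8% of all probe sets. A stricter look at single arrays, in which the 6 arrays of one line all lie above the 6 of the other, left 181 probe sets (0.402%), 88 higher and 93 lower in the high line.

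The genes with the largest differences at a level well above the floor included a cytoskeletal regulator, mitochondrial and calcium-binding proteins, and a peptide-processing enzyme. Cap1, a cyclase-associated protein that binds actin monomers and helps to turn over actin filaments, was lower in the high line on both of its probe sets. The brighter of them read 9.83, 10.27 and 10.55 in the low line and 6.74, 8.73 and 9.26 in the high line. The lines did not overlap, and array 7 of the high line was far below its other 5 arrays, which read at least 8.51. The difference was -1.67 ± 0.35 SE (3.19-fold lower, adjusted p = 0.376), and the other probe set lay at -1.81 ± 0.44 SE. Without array 7 these were -1.32 and -1.36. In hippocampus the low line read 10.02 to 10.36 on the brighter probe set and the high line 8.75 to 9.72, a difference of -0.92 ± 0.14 SE. Ppt1, a lysosomal enzyme that removes palmitate from proteins and whose loss causes a neuronal storage disease, is the coding gene beside Cap1 on chromosome 4. It read 8.92, 9.18 and 9.40 in the low and 8.68, 8.71 and 8.76 in the high line, again with no overlap (-0.47 ± 0.08 SE, adjusted p = 0.291). The 6 arrays of the high line were close together. The other 4 probe sets of Ppt1 lay between -0.01 and 0.24.

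A mitochondrial kinase and a pair of calcium-related proteins had the opposite direction. Pink1, the kinase that marks damaged mitochondria for removal, read 9.08, 9.70 and 10.45 in the low and 10.66, 10.79 and 10.81 in the high line on one probe set, a difference of 1.00 ± 0.22 SE (adjusted p = 0.413). Its other probe set lay at 0.42 ± 0.11 SE, and the lines did not overlap on either. Efhd2, swiprosin-1, a calcium-binding protein that associates with actin, read 9.67, 10.92 and 11.82 in the low and 11.74, 11.95 and 12.10 in the high line (1.12 ± 0.29 SE, adjusted p = 0.488), with 1 low-line array inside the range of the high line, and lay at 0.56 ± 0.13 SE on its other probe set. Camk2n1, an inhibitor of the calmodulin-dependent kinase CaMKII, read 6.65, 6.96 and 8.63 in the low and 8.56, 8.78 and 9.15 in the high line (1.42 ± 0.33 SE, adjusted p = 0.433), again with 1 low-line array inside the range of the high line. Its far brighter probe set, with a mean of 12.82, lay at -0.18 ± 0.09 SE. The low line was spread widely for all 3 genes, and the same arrays were at its top: arrays 1 and 2 read 10.45 and 10.43 for Pink1, 11.82 and 11.43 for Efhd2 and 8.63 and 8.33 for Camk2n1, while arrays 3 to 6 read at most 9.73, 10.98 and 7.13. The high line was tight for Pink1 and Efhd2. In hippocampus the 3 genes differed by 0.91, 1.25 and 0.99.

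The sequence before the start of 4 of these genes, all on the same chromosome, is shown. The neighbours Cap1 and Ppt1 had lower signals, Cap1 on both probe sets and Ppt1 on its brightest. The other 4 of Ppt1 lay between -0.01 and 0.24. Pink1 and Efhd2 had higher signals on each of their probe sets. The 250 bases before the start come from RefSeq, build GRCm38.p6, the reference mouse genome and not that of these lines. They were searched on both strands, overlaps allowed, for the GC box GGGCGG, a common binding element of Sp1-family factors, and for the cyclic AMP response element TGACGTCA, through which CREB acts; matches are in capitals.
Cap1 (chr4:122886077-122886326, minus strand): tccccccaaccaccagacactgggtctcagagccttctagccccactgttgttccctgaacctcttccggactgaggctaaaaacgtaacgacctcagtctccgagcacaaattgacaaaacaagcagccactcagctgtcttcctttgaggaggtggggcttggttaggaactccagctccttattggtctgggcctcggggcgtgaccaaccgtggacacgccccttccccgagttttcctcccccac
Ppt1 (chr4:122835977-122836226, plus strand): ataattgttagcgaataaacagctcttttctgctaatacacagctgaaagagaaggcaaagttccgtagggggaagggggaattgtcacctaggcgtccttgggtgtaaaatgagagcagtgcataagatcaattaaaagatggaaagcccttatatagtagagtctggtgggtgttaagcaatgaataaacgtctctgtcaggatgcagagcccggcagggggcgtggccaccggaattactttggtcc
Pink1 (chr4:138326297-138326546, minus strand): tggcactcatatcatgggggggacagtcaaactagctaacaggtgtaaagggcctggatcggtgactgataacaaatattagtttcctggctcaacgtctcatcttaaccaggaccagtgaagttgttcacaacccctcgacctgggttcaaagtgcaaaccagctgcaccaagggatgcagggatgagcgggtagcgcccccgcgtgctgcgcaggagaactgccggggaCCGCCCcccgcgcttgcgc
Efhd2 (chr4:141874921-141875170, minus strand): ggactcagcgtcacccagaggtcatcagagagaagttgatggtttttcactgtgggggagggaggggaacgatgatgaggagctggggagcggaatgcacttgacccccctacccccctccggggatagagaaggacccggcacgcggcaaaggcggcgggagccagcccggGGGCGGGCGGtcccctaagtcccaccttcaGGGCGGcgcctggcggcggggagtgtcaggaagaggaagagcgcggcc
The GC box was found 0 times in the windows of Cap1 and Ppt1, 1 time in that of Pink1 and 3 times in that of Efhd2, where 2 of the matches overlap. It occurs in 32.7% of the 32851 such windows of the promoter set. The cyclic AMP response element was in none of the 4, and 1.55% of all windows hold it. G and C made up 57.2% of the Cap1 window, 46.4% of that of Ppt1, 57.2% of that of Pink1 and 67.2% of that of Efhd2. A match is a run of letters and says nothing about binding.

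The other genes with higher signals have varied roles. Pam, the enzyme that amidates the C-terminus of many neuropeptides, read 8.14, 8.55 and 9.44 in the low and 9.30, 9.84 and 9.94 in the high line (1.13 ± 0.21 SE, adjusted p = 0.302), with 1 low-line array inside the range of the high line, and lay at 1.02 ± 0.20 SE in hippocampus. Lypd1, of the Ly6 family, whose members act on nicotinic receptors, read 9.81, 9.94 and 10.10 in the low and 10.32, 10.44 and 10.63 in the high line (0.51 ± 0.08 SE, adjusted p = 0.291), with no overlap. Its dimmer probe set also had no overlap, with the opposite sign (-0.60 ± 0.14 SE). Rpgrip1, a scaffold of the ciliary transition zone, read 6.98, 9.47 and 10.03 in the low and 10.39, 10.59 and 10.65 in the high line (1.53 ± 0.41 SE, adjusted p = 0.517), and 1.12 without array 6, its lowest low-line array. Its other 3 probe sets were near the floor, with means of 4.56 to 4.68, and lay at -0.28, 0.31 and -0.05. Rgcc, a regulator of the cell cycle, read 6.64, 7.30 and 8.58 against 8.60, 9.08 and 9.35 (1.5 ± 0.34 SE), while its other probe set lay at -0.23 ± 0.10 SE. Of the dimmer genes with the lowest p, Ece1, which cleaves the endothelin precursors, read 4.22, 4.48 and 4.91 against 5.17, 5.59 and 6.00 (1.05 ± 0.15 SE, adjusted p = 0.257). Its brightest probe set lay at -0.35 ± 0.13 SE. Scmh1, a Polycomb group protein, lay at 1.37 ± 0.24 SE, and its 2 brighter probe sets at 0.16 and 0.12. Glra1, a subunit of the glycine receptor, lay at 0.73 ± 0.13 SE on 1 probe set and at 0.02 ± 0.18 SE on the other, both near the floor.

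**Figure D1:**
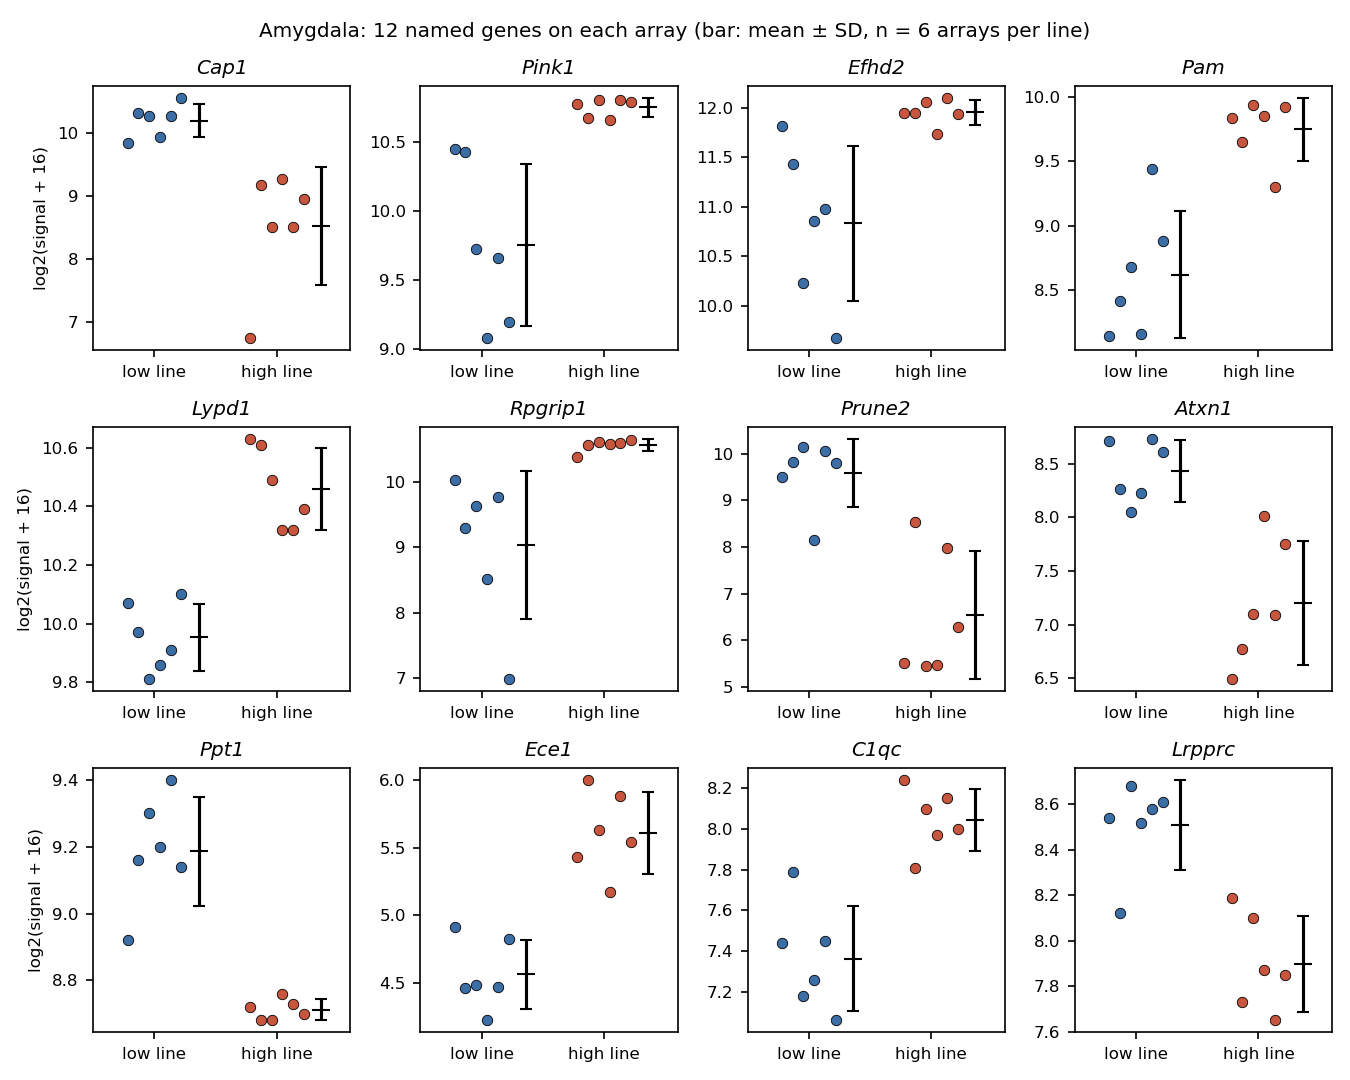
Signal on each amygdala array, log2(signal + 16) on the vertical axis, for 12 named genes, 1 probe set each (the brighter of Cap1); points are arrays in the order of their numbers within a line (blue, low line; red, high line), and bars are the mean ± SD of 6 arrays. The high line is tight and high for Pink1, Efhd2 and Rpgrip1 beside a spread low line, while for Prune2 and Atxn1 the spread lies in the high line.

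The genes with lower signals in the high line included the largest difference at a level well above the floor. Prune2, a protein with a lipid-binding domain expressed in neurons, read 8.16, 9.80 and 10.15 in the low and 5.46, 5.90 and 8.53 in the high line on one probe set (-3.04 ± 0.56 SE, 8.23-fold lower, adjusted p = 0.323). Arrays 8 and 11 of the high line, at 8.53 and 7.97, stood far above the other 4, which read 5.46 to 6.29, and array 8 lay inside the range of the low line. The brightest probe set of Prune2 went the other way, at 0.35 ± 0.11 SE. Atxn1, the ataxin mutated in a spinocerebellar ataxia, read 8.05, 8.44 and 8.73 in the low and 6.49, 7.10 and 8.01 in the high line (-1.23 ± 0.24 SE, adjusted p = 0.323) without overlap, and its brighter probe set lay at -0.04 ± 0.08 SE. Cd99l2, an adhesion protein of the cell surface, read 8.33, 8.75 and 8.85 in the low and 6.41, 6.60 and 8.77 in the high line (-1.58 ± 0.36 SE, adjusted p = 0.427). Array 11 of the high line, at 8.77, was inside the range of the low line, and without it the adjusted p of this probe set was 0.0414. Leaving out the array that goes against a difference favours a lower p, and this probe set did not pass with any other single array left out. Its 4 probe sets were split, at -1.58, -0.99, -0.51 and, on the brightest, 0.36.

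Lrpprc, which stabilises mitochondrial messenger RNA, read 8.12, 8.56 and 8.68 in the low and 7.65, 7.86 and 8.19 in the high line (-0.61 ± 0.12 SE, adjusted p = 0.323), and array 2, its lowest low-line array, lay inside the range of the high line. Ptp4a2, a membrane-associated phosphatase, lay at -0.90 ± 0.22 SE, with another bright probe set at 0.28 ± 0.09 SE. Hpca, the neuronal calcium sensor hippocalcin, lay at -0.68 ± 0.16 SE and -0.21 ± 0.11 SE on its 2 probe sets. Gnb1, a G-protein beta subunit, lay at -0.74 ± 0.23 SE and -0.47 ± 0.26 SE on its bright probe sets. Tnnt2, a troponin of heart muscle, had low signals, 5.31, 5.76 and 6.33 against 4.14, 4.26 and 5.57 (-1.33 ± 0.24 SE, adjusted p = 0.291), and a second probe set at -1.35 ± 0.36 SE. Without array 11, where it read 5.57, the adjusted p of Tnnt2 was 0.0122. That is the high-line array that goes most against the difference, so leaving it out favours a lower p. With any other single array left out Tnnt2 did not pass. Chrna7, the alpha7 nicotinic receptor subunit, lay at -0.55 ± 0.10 SE on a dim probe set and at -0.02 ± 0.08 SE on the bright one. In a fit of all 24 arrays, which estimates the spread from both tissues, the amygdala difference passed for 5 named genes: Ppt1 and Tnnt2 (adjusted p = 0.0207 each), Cap1, Glra1 and Scmh1 (0.0361 each). With the amygdala arrays alone none of the 5 passed. In hippocampus Glra1 read 4.05 to 4.79 and Tnnt2 4.14 to 4.86, near the floor, where spread is compressed. On the brighter Cap1 probe set the SD of the low and high line was 0.12 and 0.34 there, against 0.26 and 0.93 in amygdala.

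Several probe sets of one gene seldom agreed. The 24 named genes with the lowest p, 12 in each direction, had adjusted p of 0.257 to 0.376, and the lines did not overlap for 19 of them. On the array 17 of the 24 have further probe sets, 35 in all. At an unadjusted p under 0.05, 5 of the 35 lay in the same direction and 5 in the opposite one. At this p 1289 of all 45037 probe sets were higher and 1656 lower. Over all probe sets, 18 genes had at least 2 at an unadjusted p under 0.01 in 1 direction and none in the other, 8 higher and 10 lower. Higher among them were Pink1, Efhd2, Khdrbs1, an RNA-binding protein (0.88 and 0.38), Tnrc6a, a partner of Argonaute in microRNA silencing (0.50 and 0.31), Tmie (0.90 and 0.49) and Ang, angiogenin (1.00 and 0.69). Lower among them were Cap1, Tnnt2, Fut10, a fucosyltransferase (-0.92 and -0.66), Cdh7, a cadherin (-0.66 and -0.45), Prpf19, a splicing ubiquitin ligase (-0.52 and -0.44) and Papss2, which makes the sulfate donor (-0.49 and -0.39). Prpf19 lay at -0.74 in hippocampus, where it passed the test (adjusted p = 0.0301). Its brightest probe set in amygdala lay at 0.06 ± 0.08 SE and that of Papss2 lay at 0.05 ± 0.14 SE. The remaining probe sets of Khdrbs1 lay between -0.13 and 0.19, and those of Tnrc6a between -0.02 and 0.50. The remaining probe set of Cdh7, of like brightness, lay at 0.13 ± 0.15 SE, and at 0.61 in hippocampus.

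The hippocampus arrays, which share no array with the amygdala test, gave the same sign for 20 of the 24 genes, 10 of them at an unadjusted p under 0.05. Over all probe sets 51.3% had the same sign, and 4.91% had it with such a p in hippocampus. The labels do not say whether both tissues came from the same animals. Of the 181 probe sets whose lines did not overlap in amygdala, 115 (63.5%) had the same sign in hippocampus, and 9 had no overlap there in the same direction either. In hippocampus 287 probe sets (0.637%) had no overlap, so the 9 are 4.97% of the amygdala list and 3.14% of the hippocampus list. The 8 with a gene name were Il17d, a cytokine (0.51 in amygdala and 0.60 in hippocampus), Rpgrip1 (1.53 and 1.88), Samd4, an RNA-binding repressor of translation (0.35 and 0.51), Cap1 (-1.67 and -0.92), Supt16, a subunit of the histone chaperone FACT (-0.36 and -0.47), Slc35f5 (-0.42 and -0.76), Pkp2, plakophilin (-0.40 and -0.19), and Urgcp (-0.68 and -0.67). The Urgcp probe set is its dimmest, and the brighter ones lay between -0.17 and 0.07 in amygdala. The brightest probe set of Samd4 lay at 0.12 in both tissues. Supt16 read at least 8.76 in the low line and at most 8.72 in the high line, and its dimmer probe set lay at -0.85 ± 0.23 SE. In both tissues the test of these genes stayed above the threshold, with hippocampus adjusted p of 0.0754 for Cap1 and 0.0795 for Slc35f5 as the lowest of them. On the probe set of lowest p, Prune2 (-3.04 and -2.84), Atxn1 (-1.23 and -1.13), Pam (1.13 and 1.02), Cdh7 (-0.66 and -0.65), Lrpprc (-0.61 and -0.53) and Lypd1 (0.51 and 0.61) had differences of like size in both tissues. By contrast Fut10 (-0.92 and -0.06), Tnnt2 (-1.33 and -0.04), Sesn2, a stress-induced sestrin (-0.69 and 0.06), Rhobtb3 (-0.83 and 0.05) and Gpr137c (0.80 and 0.12) had values near 0 in hippocampus on the same probe set, and these 5 were dim in amygdala. Brighter genes with small values in hippocampus were Tnrc6a (0.50 and 0.10), Ppt1 (-0.47 and -0.11), Med25 (-0.35 and -0.04) and Plxnb2, a semaphorin receptor (0.58 and 0.07). The second probe sets of Fut10 and Tnnt2 lay at -0.76 and -0.64 in hippocampus. The Tnnt2 probe set at -0.04 read only 4.14 to 4.86 there, near the floor, where a difference is compressed. Rhobtb3 was split in amygdala. Its brightest probe set lay at 0.30 ± 0.08 SE, with no overlap between lines, and the next at 0.42 ± 0.16 SE, against the sign of -0.83. Its remaining probe sets lay at -0.35 and -0.04.

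**Figure D2:**
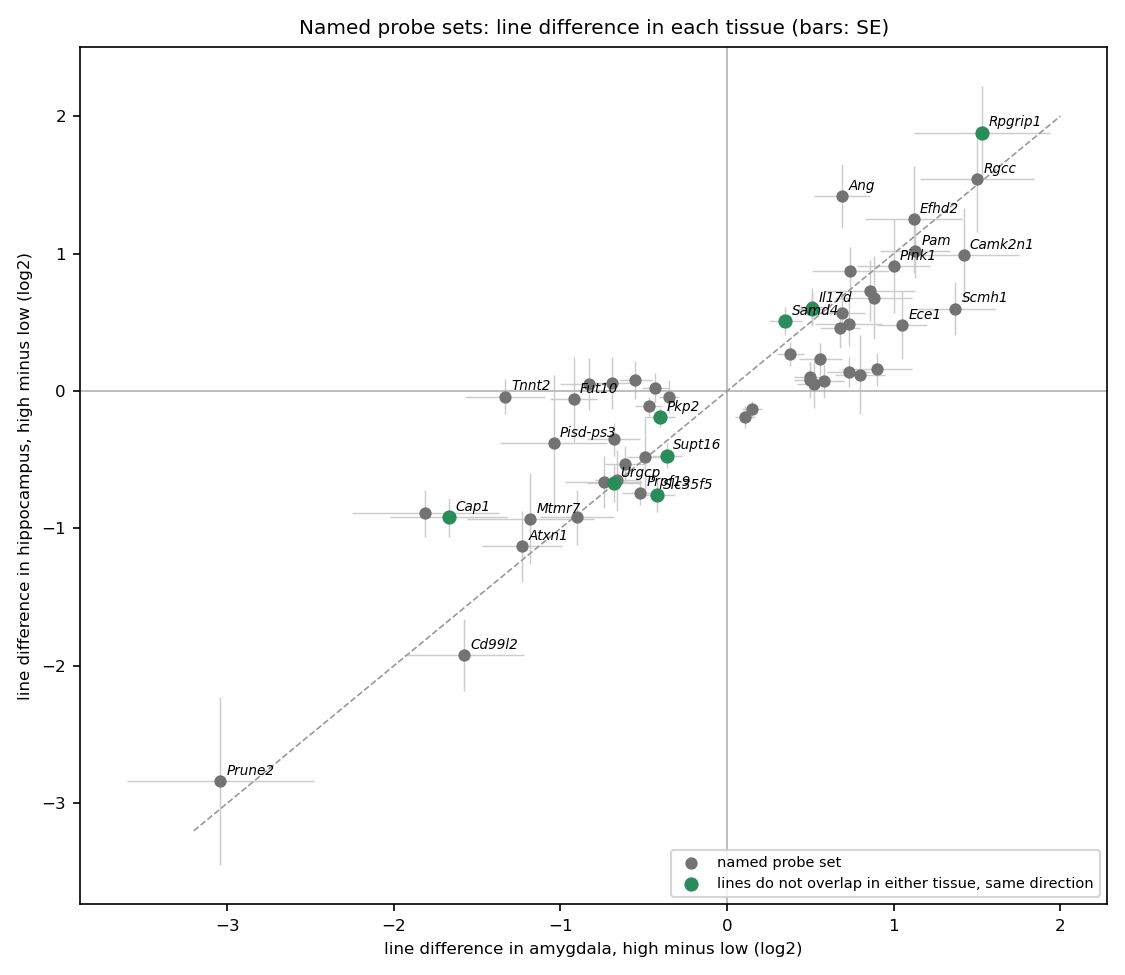
Line difference (high minus low, log2) in amygdala on the horizontal and in hippocampus on the vertical axis for the named probe sets, chosen mostly for their amygdala values, with bars of 1 SE; the dashed line marks equal differences and green points have no overlap between the lines in either tissue. Prune2, Cd99l2, Cap1 and Atxn1 lie to the lower left and Rpgrip1, Rgcc and Efhd2 to the upper right, while Tnnt2 and Fut10 lie near 0 in hippocampus.

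A test of the difference between the tissues called 0 of 45037 probe sets in limma (0.0%), with 3189 at an unadjusted p under 0.05 and a lowest adjusted p of 0.156. The named genes with the lowest p in it were Pde1c, a calcium- and calmodulin-dependent phosphodiesterase (-0.18 in amygdala, or -0.083 without array 1, and 0.74 in hippocampus), Armh4 (0.04 and -0.71), Foxk1, a forkhead factor (-0.14, or -0.23 without array 12, and 0.74), Tmco5 (-0.23 and 0.51), Ppp4r1l-ps, a pseudogene (-0.59 and 0.56), and Ripor1, an inhibitor of RhoA (-0.84 and 0.75), each with an adjusted p of 0.260. In hippocampus alone Pde1c and Armh4 passed the test (adjusted p = 0.0339 each). Armh4 aside, all had a negative value in amygdala and a positive one in hippocampus. All but Armh4 were dim in amygdala.

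By position, chromosome 4 held the largest share of the probe sets with low p among chromosomes with over 100 probe sets. Of 2103 probe sets placed there 68 (3.23%), from 62 genes, were at an unadjusted p under 0.01, against 541 of 34878 placed on any chromosome (1.55%). They were 40 higher and 28 lower, and 23 had no overlap between lines (1.09%, against 0.413% of all placed probe sets). Chromosomes 19 (2.55%), 14 (2.53%), 8 (2.34%) and 1 (2.17%) followed. The share on chromosome 4 was between 2.62% and 3.38% when single arrays were left out and 2.47% without arrays 7 and 8. In hippocampus the share was 2.62% on chromosome 4 and 2.26% over all, and largest on chromosome 14 at 5.46%. In amygdala 477 coding genes had a probe set at an unadjusted p under 0.01. Pairs of them next to each other numbered 20, of which 6 were on chromosome 4. How many such pairs scattered genes would give was not worked out. With each gene read by its probe set of lowest p, the direction was the same in 10 pairs and opposite in 10. On these probe sets Ppt1 and Cap1 were both lower, and Ece1 and Eif4g3, a translation initiation factor, were both higher (1.05 and 0.28). Khdrbs1 and Ptp4a2 were opposite (0.38 and -0.90). These directions depend on the probe set: the one of Ece1 is dim and its brightest lay at -0.35, and another bright one of Ptp4a2 lay at 0.28. Miip, Fv1, a retroviral restriction factor, and Mfn2, mitofusin, lie in a row at 0.36, -1.02 and 0.30. On chromosome 14 Il17d and Eef1akmt1 were both higher (0.51 and 0.54), as were Mzt1 and Bora (0.74 and 0.63), both mitotic regulators, though the 2 brighter probe sets of Mzt1 lay at 0.13 and 0.05, while Rpgrip1 was higher and the neighbouring Supt16 lower.

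**Figure D3:**
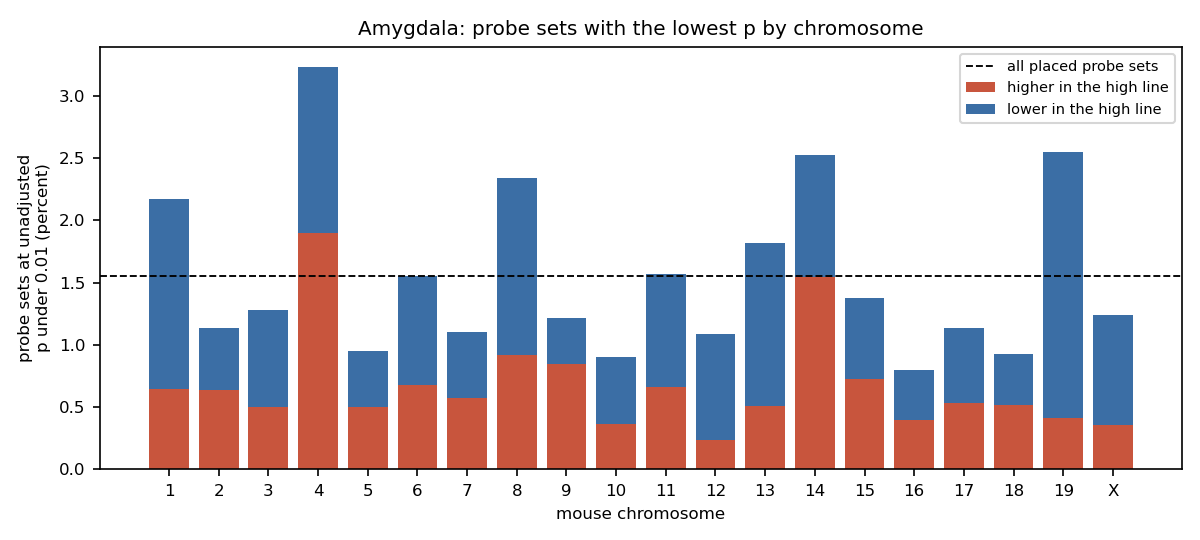
Percent of the probe sets placed on each mouse chromosome that had an unadjusted p under 0.01 in the amygdala line test, split into higher (red) and lower (blue) in the high line; the dashed line is the share over all placed probe sets, 1.55%. Chromosome 4 reaches 3.23%, and chromosome 19 is mostly lower, 26 of 31.

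The gene lists tied to fear circuits gave few differences. Each gene was represented by its brightest probe set, and over all 18193 genes 1030 (5.66%) had an unadjusted p under 0.05, 547 higher and 483 lower, with a median difference of 0.008. No member of any of the 45 lists was called. Of 17 fear circuit neuropeptides 0 were at an unadjusted p under 0.05 and the median difference was 0.01. Trh, thyrotropin-releasing hormone, had the lowest p, with 4.69, 5.50 and 6.71 in the low and 5.68, 6.19 and 6.72 in the high line (0.65 ± 0.33 SE, adjusted p = 0.781). Crh, corticotropin-releasing hormone, lay at -0.26 ± 0.18 SE, Sst, somatostatin, at 0.09 ± 0.07 SE and Penk, proenkephalin, at -0.10 ± 0.14 SE. Of 25 receptors for such peptides 2 were at this p. Oprl1, the nociceptin receptor, read 7.94, 8.29 and 8.64 in the low and 8.41, 8.60 and 8.89 in the high line (0.37 ± 0.13 SE, adjusted p = 0.654), and Avpr1a, the vasopressin V1a receptor, was dim and lay at -0.38 ± 0.16 SE, or -0.23 without array 11. Oprk1, the kappa opioid receptor, lay at -0.21 ± 0.11 SE.

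The markers of the amygdala's cell groups held few members with a low p. Of 14 genes of central amygdala cell classes 11 had a negative difference (median -0.09, against 47.5% negative over all genes) and 0 were at an unadjusted p under 0.05. Prkcd, which marks a class of central neurons, lay at -0.03 ± 0.13 SE. Of 14 basolateral projection neuron genes 7 were positive and 7 negative, and 1 was at this p: Satb1, a chromatin organiser, with 8.79, 9.12 and 9.41 against 9.26, 9.35 and 9.45 (0.25 ± 0.10 SE). Of 16 intercalated and patterning factors 1 was, Nr2f2, with 8.77, 8.91 and 8.99 against 8.86, 9.15 and 9.24 (0.21 ± 0.08 SE). Of 17 amygdala markers 3 were, Lypd1, Nr2f2 and Cdh13, T-cadherin (0.16 ± 0.07 SE), all higher, with a list median of 0.01. Of 13 hippocampus markers 3 were, all lower: Pkp2 (7.25, 7.37 and 7.63 against 6.86, 7.05 and 7.11, no overlap), Dsp (-0.29 ± 0.11 SE, near the floor) and Zbtb20 (-0.14 ± 0.06 SE). In these samples, fewer cells of a type and less RNA per cell cannot be told apart.

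Transmitter and plasticity lists held 0 to 3 members each at an unadjusted p under 0.05. Of 17 genes for GABA handling and GABA-A receptors 1 was, Gabrg3, a receptor gamma subunit (-0.21 ± 0.09 SE). Of 15 genes of AMPA and kainate receptors 1 was, Cacng3, an auxiliary AMPA receptor protein (-0.25 ± 0.11 SE), and of 15 NMDA receptor and scaffold genes 0. Of 10 metabotropic glutamate receptor and uptake genes 1 was, Glul, glutamine synthetase (-0.21 ± 0.09 SE). Of 8 glycine receptor and transport genes 0 were, with Glra1 represented by the brighter of its dim probe sets. Of 20 plasticity kinases and CREB genes 1 was, Camk2g, the gamma subunit of CaMKII (0.20 ± 0.07 SE), and of 6 neurotrophins and receptors 0. Of 17 immediate early genes 1 was, Egr4, with 5.88, 6.45 and 6.78 against 4.65, 5.74 and 6.55 (-0.66 ± 0.27 SE, or -0.44 without array 12), while Fos lay at 0.01 ± 0.27 SE. Of 21 acetylcholine receptor and Ly6-family genes 3 were: Lypd1, Ache, acetylcholinesterase (0.18 ± 0.08 SE), and Lypd6 (7.75, 7.85 and 8.10 against 7.59, 7.66 and 7.72, -0.22 ± 0.07 SE). The lines did not overlap for Lypd1, Lypd6 and Lynx1 among the 21, against 0.402% of all probe sets. Lypd1 was higher and Lypd6 lower, and Lynx1 was not at this p. The 2 shares are not alike, since the 21 genes are read by their brightest probe set and the list was chosen with earlier results known. Of 16 serotonin genes 0 were, and of 12 dopamine and noradrenaline genes 1, Slc18a2, the vesicular monoamine transporter (-0.44 ± 0.15 SE, dim). Of 11 endocannabinoid genes 1 was, Ptgs2, cyclooxygenase-2 (-0.39 ± 0.17 SE, or -0.25 without array 2).

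Genes of stress hormones came out in both directions. Of 15 genes of corticotropin and glucocorticoid signalling 2 were at an unadjusted p under 0.05, both glucocorticoid targets, Tsc22d3 (8.49, 8.65 and 9.04 against 8.28, 8.43 and 8.72, -0.24 ± 0.11 SE) and Per1 (7.25, 7.39 and 7.72 against 7.49, 7.63 and 7.98, 0.23 ± 0.11 SE), in opposite directions. Per1 was also the 1 of 16 circadian genes. Of 18 potassium channel genes 1 was, Kcnj9, a GIRK channel subunit (0.26 ± 0.10 SE), of 16 calcium, sodium and HCN channel genes 0, and of 18 release machinery genes 1, Rab3a, a vesicle GTPase (-0.60 ± 0.23 SE), whose other bright probe set lay at 0.00 ± 0.07 SE. Of 9 genes of the endothelin system and related peptidases 2 were, both lower, Mme, neprilysin (-0.41 ± 0.16 SE), and the bright probe set of Ece1. Of 21 lysosomal genes 1 was, Ppt1. Of 30 Mediator subunits 2 were, Med25 (7.89, 7.89 and 8.04 against 7.54, 7.56 and 7.66, -0.35 ± 0.06 SE, adjusted p = 0.302, no overlap) and Med8 (0.18 ± 0.07 SE). Of 22 Polycomb genes and of 15 heat shock and folding genes 0 were. Of 18 glyoxalase and antioxidant genes 1 was, Gclc, the catalytic subunit for glutathione synthesis (0.27 ± 0.09 SE), and of 12 MHC class I and interferon genes 1, Tap1, a peptide transporter (0.49 ± 0.16 SE, dim).

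Complement genes were split. C1qc, a chain of the C1q complex that microglia make, read 7.06, 7.35 and 7.79 in the low and 7.81, 8.05 and 8.24 in the high line (0.68 ± 0.12 SE, adjusted p = 0.291), with no overlap. The other chains did not follow: C1qa read 8.55, 8.58 and 8.80 against 8.18, 8.46 and 8.55 (-0.21 ± 0.08 SE), and C1qb lay at 0.13 ± 0.11 SE. C1qc has 1 probe set, and lay at 0.46 in hippocampus. Of 13 complement genes 4 were at an unadjusted p under 0.05, 2 higher and 2 lower, with Cd59a, an inhibitor of complement lysis, at 0.29 ± 0.11 SE. Of 16 microglia and macrophage markers 2 were, C1qc and C1qa, and the list median was 0.03.

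**Figure D4:**
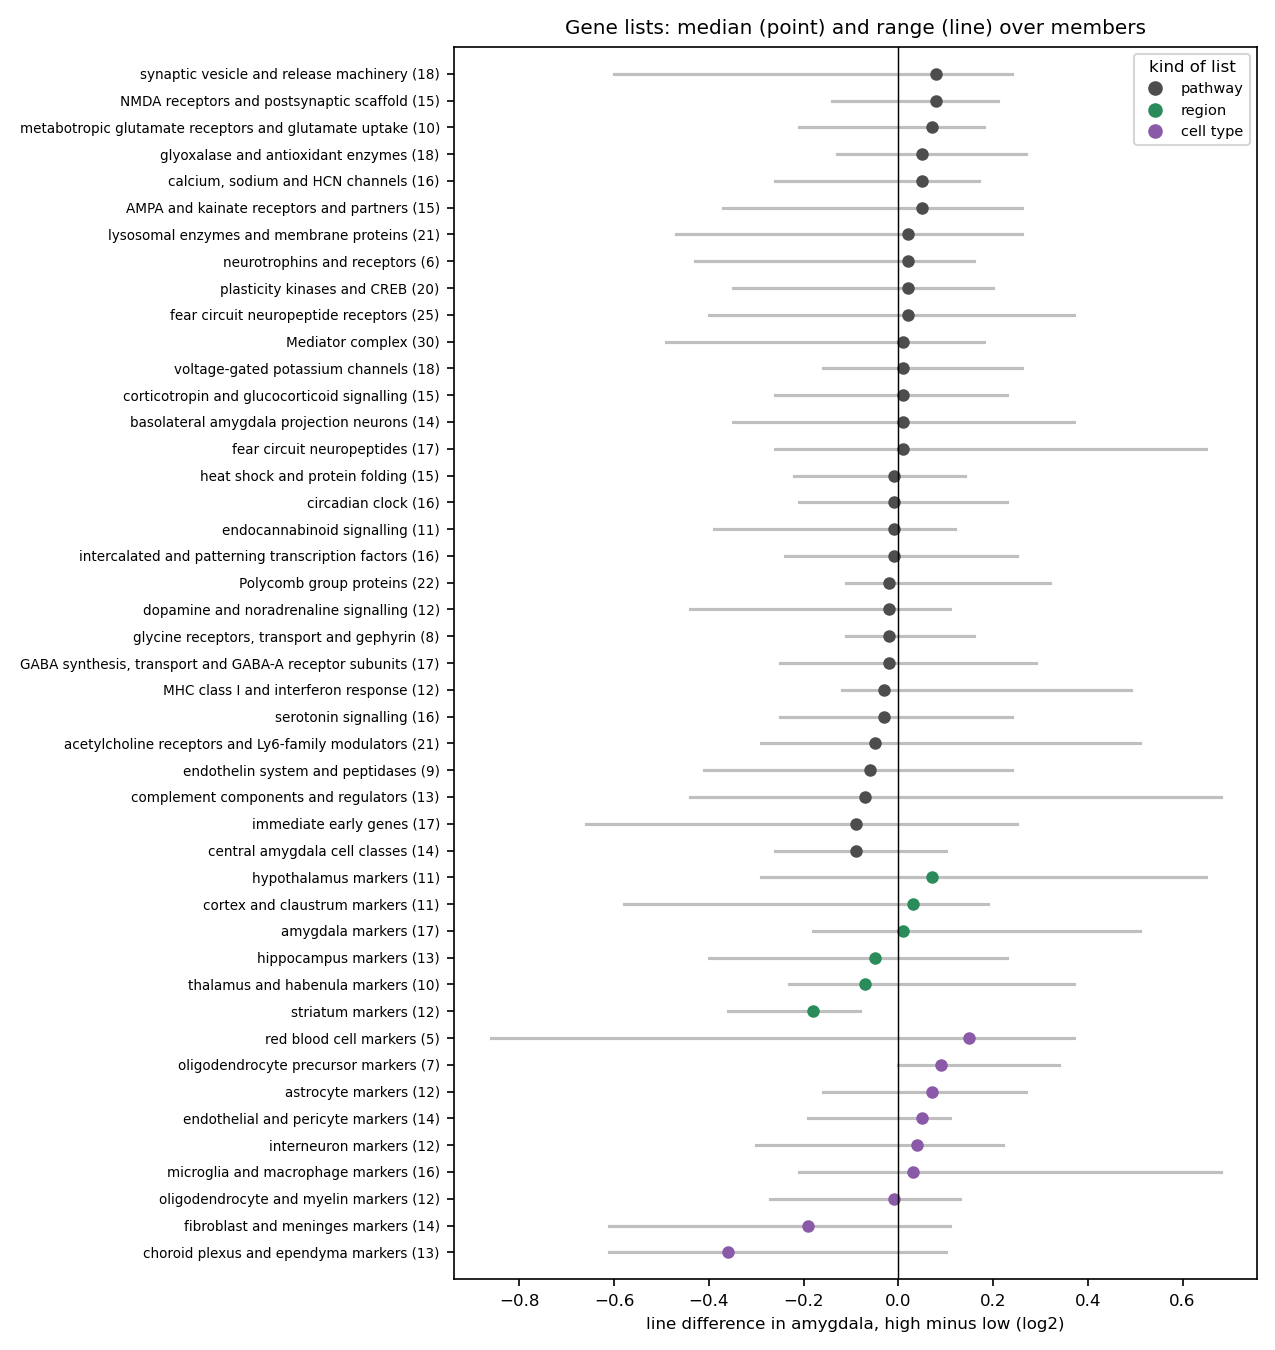
Line difference in amygdala (high minus low, log2) for 45 gene lists, with the number of measured members in parentheses; points are medians, lines run from the lowest to the highest member, and colours give the kind of list. Medians of most lists lie between -0.1 and 0.1, and striatum markers, choroid plexus markers and meninges markers lie to the left.

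Markers of striatum, choroid plexus and meninges varied between arrays, and most had a negative difference, while those of hypothalamus were mostly positive and those of cortex and thalamus mixed. The difference was below 0 for all 12 striatum markers (median -0.18), and 0 were at an unadjusted p under 0.05. Their linear signals summed to between 5996 and 10401 on low-line arrays and between 5678 and 9453 on high-line arrays, and Pde10a, the phosphodiesterase of striatal projection neurons, lay at -0.30 ± 0.15 SE. Of 13 choroid plexus and ependyma markers 12 were negative (median -0.36, 0 at this p), with summed signals of 1948 to 15149 and 1034 to 13934. Ttr, transthyretin, the main product of the choroid plexus, read 10.45, 13.21 and 13.69 in the low and 8.92, 12.76 and 13.59 in the high line. Of 14 fibroblast and meninges markers 11 were negative (median -0.19), although their summed signals had like medians, 2218 and 2216, and 1 was at this p, Slc22a6, an organic anion transporter (-0.61 ± 0.23 SE). The ranges of the lines overlapped almost wholly, and the arrays with the lowest sum in each line differed by list. Choroid signals were lowest on arrays 3 and 11, striatum signals on arrays 5 and 10. The dopamine receptors Drd1 and Drd2 are in both the striatum and the central amygdala list. The part of these tissues in the line differences was not tested.

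Other cell types had few members at this p, and most had more positive than negative members. Of 12 astrocyte markers 10 were positive (median 0.07), with Fgfr3 at 0.24 ± 0.10 SE, and of 14 endothelial and pericyte markers 10 (median 0.05). Of 12 myelin markers 6 were positive, with Ermn at -0.27 ± 0.11 SE, of 7 oligodendrocyte precursor markers 6, with Sox10 at 0.34 ± 0.15 SE, and of 12 interneuron markers 9, with Dlx5 at -0.30 ± 0.14 SE. Of 11 hypothalamus markers 9 were positive (median 0.07), with Trh the highest at 0.65, and Pmch, melanin-concentrating hormone, was the 1 at this p (-0.29 ± 0.13 SE). Of 11 cortex markers 6 were positive (median 0.03) and of 10 thalamus markers 4 (median -0.07), with 0 at this p. Of 5 red blood cell markers 3 were positive (median 0.15). Alas2, an enzyme of heme synthesis, lay at -0.86 ± 0.18 SE, the hemoglobin gene Hba-a1 was near the floor, at 4.08 to 5.07 on all 12 arrays, and the 1 bright member, the carbonic anhydrase Car2, which other cells make too, lay at -0.02 ± 0.10 SE.

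**Figure D5:**
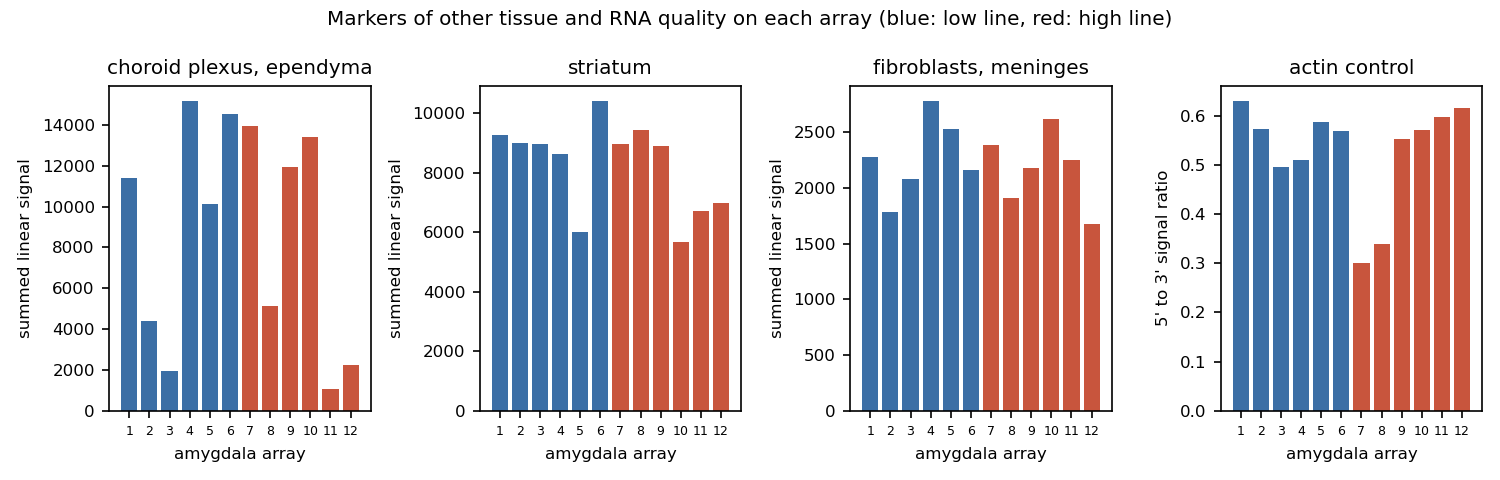
Summed linear signal of choroid plexus, striatum and meninges markers, and the 5' to 3' ratio of the actin control, on each amygdala array (blue, arrays 1 to 6 of the low line; red, arrays 7 to 12 of the high line). The marker sums overlap between lines, and the actin ratio is lowest on arrays 7 and 8, at 0.301 and 0.339.

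Of 7 array measures, among them the median signal, ribosomal RNA controls and 5' to 3' ratios, none separated the lines after adjustment. The first principal component, with 13.2% of the variance, came nearest (exact permutation test, two-sided p = 0.0563, adjusted 0.394). Arrays 7 and 8, which scored 47.8 and 31.5 on it, and array 2, at -46.9, lay farthest out. Without arrays 7 and 8 the test called 0 probe sets, with 596 at an unadjusted p under 0.01, of which 319 are among the 715.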

How the data were processed

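Expression was measured on 24 Affymetrix mouse arrays, 6 per line and tissue, and the 12 amygdala arrays are described here. Lines and tissues were read from the descriptions, array numbers from titles. The authors deposited linear intensity values, 1 per probe set; neither the signal algorithm nor a genome build is named (not given in the sources used here). On every array the mean without the highest and lowest 2% of values is 150, so differences are relative to the bulk of probe sets. The number of arrays, not a count of molecules, limits the precision. Of 45101 probe sets 64 controls were left out. Platform annotation gave 1 symbol to 34945, several to 932 and none to 9160; 34741 symbols were updated through Entrez identifiers to the GRCm38.p6 table, and 18193 genes result. No column of values was left unmapped.

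The line difference was fitted on log2(value + 16) with limma 3.58.1 (lmFit, eBayes) in R 4.3.3 on the 12 arrays of a tissue alone, and the difference between tissues on the 4 group means of all 24 arrays. Calls needed a Benjamini-Hochberg adjusted p below 0.05. Single measures were compared with exact two-sided permutation tests of the difference of means, whose smallest p at 6 against 6 is 0.00216. The fits were tested on simulated data. No set test was run; lists are described by counts and medians beside the same over all genes.

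Named were up to 12 genes per direction with the lowest p, up to 10 per direction with the largest difference among those at an unadjusted p under 0.01 with the higher line mean at least 8, up to 12 with several probe sets in 1 direction, up to 12 without overlap in both tissues, up to 3 members per list at an unadjusted p under 0.05 together with defining members, up to 6 with the lowest p between tissues, and any call. The neighbouring pairs and genes without overlap in opposite directions were added after their values were seen. Members, lists and rules were chosen with earlier results of these data known. Alternatives changed the pseudocount, filter, normalization, variance model and arrays used. Array numbers were not used to pair tissues: same-numbered arrays correlated at -0.0565 to 0.127 after group means were removed (median -0.0112).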

Additional observations from a re-analysis of the deposited data

Results flagged for a closer look

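In 13 of 192 groups examined (6.77%; 96 named probe sets in 2 lines) 1 array stood apart from the other 5 of its line, with a gap large for the group's range. The criterion was Dixon's test at 95%, which chance passes in about 1 of 20 groups, so the 13 are close to that share. Array 7 of the high line was the lowest for Rpgrip1 (10.39, others 10.56 to 10.65), Cap1 (6.74, others 8.51 to 9.26) and Cacng3 (7.56, others 7.92 to 8.13), and array 8 for Khdrbs1 (8.73, others 9.45 to 9.62). These 2 arrays also had the lowest actin 5' to 3' ratios, and the part of RNA quality in these values was not tested. In the high line array 11 was the highest for Tnnt2 (5.57, others 4.14 to 4.46), and array 10 the lowest for Tap1 (4.68, others 5.39 to 5.66) and Dlx5 (6.28, others 6.70 to 6.86). In the low line array 4 was the lowest for Prune2 (8.16, others 9.50 to 10.15) and Ripor1 (4.38, others 5.35 to 5.67), array 2 for Lrpprc (8.12, others 8.52 to 8.68) and the bright probe set of Ece1 (7.58, others 7.81 to 7.92), and array 5 for Mme (6.16, others 6.79 to 7.01), while array 1 was the highest for Gabrg3 (7.36, others 7.04 to 7.15).

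For 2 probe sets the lines did not overlap in either tissue, but in opposite directions. Tbca, a tubulin-folding cofactor, lay at 0.15 in amygdala and -0.13 in hippocampus, a difference between tissues of 0.28, and Ssna1, a microtubule-associated protein, at 0.11 and -0.19, a difference of 0.30. The unadjusted p of the difference was 7.94e-04 and 0.00281 (limma, adjusted 0.463 and 0.502), so neither passed.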

How the results depend on the processing

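Counts of calls in amygdala were 1 under log2(value + 1), quantile normalization and median centring. They were 0 with log2(value + 64), with an intensity trend, after dropping the lowest 40% of probe sets, among them the called one, and without arrays 7 and 8, and 6 in a fit of all 24 arrays. Leaving out single arrays gave 0 to 3 calls. Probe sets at an unadjusted p under 0.01 numbered 542 to 812 over the other alternatives and 600 to 716 with single arrays left out. The count without overlap was 138 to 199 over other scalings and filters, 282 to 335 with 5 arrays in one line and 578 without arrays 7 and 8, where fewer arrays make separation easier; the count repeated in hippocampus was 7 to 9, 10 to 16 and 18. No alternative gave a call between tissues, the array number as a replicate block included (0 calls, consensus correlation 0.00672; 2 of 12 arrays correlated best with their own number). Armh4 lay between -0.038 (without array 3, the 1 change of sign) and 0.09 with single arrays left out. The other named differences kept their sign in the alternatives run. Their size moved with the pseudocount for dim probe sets, as for Ece1, at 2.06 with log2(value + 1) and 0.44 with log2(value + 64). Of 945 list medians 21 moved by more than 1 SD between arrays. Signals near the floor, as for 49.8% of the probe sets (both means under 6), limit what dim genes can show.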

Other observations

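Over all 18193 genes the lists whose medians stood farthest from the overall median of 0.008 were 3 marker lists: choroid plexus at -0.36, meninges at -0.19 and striatum at -0.18, while no pathway list reached beyond -0.09 or 0.08. In hippocampus the same 3 lists lay at 0.05, 0.23 and 0.00.

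Of the 541 placed probe sets at an unadjusted p under 0.01, 241 were higher and 300 lower in the high line. The balance varied by chromosome, and differences between chromosomes were not tested. On chromosome 19, of 31 probe sets at an unadjusted p under 0.01, 26 were lower in the high line, among them Prune2, Prpf19 and Papss2, and the adjacent pair Trpm3, a calcium-permeable channel, and Klf9, a glucocorticoid-induced factor (-1.16 and -0.52). Chromosomes with more higher than lower signals included 14 (19 higher and 12 lower), 4 (40 and 28), 9 (16 and 7) and 2 (18 and 14). Those with more lower signals included 1 (14 higher and 33 lower), 12 (3 and 11), 13 (7 and 18) and X (4 and 10).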
